A study of Homo sapiens with 12 samples.

Results

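The 33 genes described here are the cholesterol and fatty acid synthesis genes of the SREBP pathway, the sterol regulatory element-binding proteins and the enzymes they switch on. They were matched by gene symbol and are 33 of 26475 entries in the deposited table. All 33 were measured well enough to be tested, with at least 94 counts in every library. They fall into 5 regulators (SREBF1, SREBF2, SCAP, INSIG1 and INSIG2), 19 sterol pathway genes and 9 fatty acid pathway genes.

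RNA was sequenced from A375, an established human melanoma cell line, after 24 h in 4 conditions with 3 libraries each. The cells received 1 µM OF1 together with 1 µM XL413 (the combination), 1 µM OF1 alone, 1 µM XL413 alone, or the vehicle DMSO. OF1 inhibits the bromodomain proteins BRPF1/2/3, which are scaffolds of histone acetyltransferase complexes, and XL413 inhibits CDC7, a kinase needed to start DNA replication. All conditions share the same cell line and serum-containing medium. The libraries of a group are called biological replicates by the submitters, but nothing says that they came from separate cultures, so the tests reflect the spread among the sequenced libraries, which may be technical.

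SREBPs are made as membrane proteins of the endoplasmic reticulum, where SCAP escorts them and INSIG proteins hold the complex back when sterols are plentiful. When sterols run low, the complex moves to the Golgi, proteases release the N-terminal part, and this enters the nucleus to activate lipid synthesis genes. SREBF2 encodes the form most tied to cholesterol synthesis, and SREBF1 the form most tied to fatty acid synthesis. SREBF1 and INSIG1 are themselves targets of the pathway.

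Each library held between 30499559 and 36062138 counts (median 33319779), and edgeR's common coefficient of biological variation was 0.0487. Of the lineage markers, SOX10 lay between 318 and 386 CPM (counts scaled to a common library size with TMM factors) and MITF between 32.8 and 44.4 CPM. The pigment gene TYR had 0 counts in all 12 libraries, and MLANA had at most 8 counts and DCT at most 7. Transcripts of skeletal muscle were present as well and varied within groups. The 42 tested genes of a list of 45 muscle fibre genes summed to 50.1 to 151 CPM in the combination, 190 to 429 CPM in OF1, 198 to 416 CPM in XL413 and 136 to 343 CPM in DMSO. The muscle genes TNNI2, CHRND and KLHL40 were at 0 in at least 1 library. A list of 14 fibroblast and matrix genes summed to 1374 to 1806 CPM in the combination, 1988 to 2140 CPM in OF1, 2059 to 2175 CPM in XL413 and 1950 to 2177 CPM in DMSO. Combination replicates 2 and 3 stood apart from the other libraries by their low muscle content, with a mean log2 CPM over the muscle list of -0.94 and -0.53, against 0.44 in combination replicate 1 and 0.39 to 2.12 in the other 9 libraries. Over the fibroblast and matrix list the mean log2 CPM was 3.67 and 3.83 in combination replicates 2 and 3, 4.60 in combination replicate 1, and 4.76 to 5.00 in the other 9 libraries. In these bulk samples fewer cells of a type and less RNA per cell cannot be told apart.

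Promoter sequence is shown for the 4 members that fell in the combination both against DMSO and against XL413 (SREBF1, INSIG1, STARD4 and SCD), and for SREBF2, the other SREBP gene. Each is the stretch of 250 bases before the outer start of the annotated gene on GRCh38.p14, from RefSeq, written 5′ to 3′ on the gene's own strand. Capitals mark a match to TCACNCCAC, the core of a sterol regulatory element, or to CCAAT, the box bound by NF-Y, which works beside SREBPs at many lipid gene promoters. A match on the other strand reads ATTGG.
SREBF1, chr17:17836987-17837236, minus strand: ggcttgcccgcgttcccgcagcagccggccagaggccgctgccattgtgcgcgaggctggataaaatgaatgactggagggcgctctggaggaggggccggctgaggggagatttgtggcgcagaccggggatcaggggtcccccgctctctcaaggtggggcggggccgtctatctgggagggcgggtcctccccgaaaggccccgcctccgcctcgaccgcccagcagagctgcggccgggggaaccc
INSIG1, chr7:155297628-155297877, plus strand: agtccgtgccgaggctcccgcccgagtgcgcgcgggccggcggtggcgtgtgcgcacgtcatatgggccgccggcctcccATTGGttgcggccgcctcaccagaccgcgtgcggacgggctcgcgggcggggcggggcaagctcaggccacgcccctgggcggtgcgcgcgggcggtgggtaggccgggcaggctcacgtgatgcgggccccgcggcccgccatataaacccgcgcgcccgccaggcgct
STARD4, chr5:111512536-111512785, minus strand: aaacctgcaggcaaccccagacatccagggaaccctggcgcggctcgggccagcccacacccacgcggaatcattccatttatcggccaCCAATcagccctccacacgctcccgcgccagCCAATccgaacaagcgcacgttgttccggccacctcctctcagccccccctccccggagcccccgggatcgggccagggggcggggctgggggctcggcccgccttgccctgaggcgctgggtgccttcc
SCD, chr10:100346983-100347232, plus strand: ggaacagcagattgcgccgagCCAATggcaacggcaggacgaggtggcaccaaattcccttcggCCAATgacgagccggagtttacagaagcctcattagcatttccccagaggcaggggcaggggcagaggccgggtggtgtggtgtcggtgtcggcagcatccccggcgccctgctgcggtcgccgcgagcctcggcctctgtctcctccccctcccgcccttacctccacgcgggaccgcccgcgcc
SREBF2, chr22:41832855-41833104, plus strand: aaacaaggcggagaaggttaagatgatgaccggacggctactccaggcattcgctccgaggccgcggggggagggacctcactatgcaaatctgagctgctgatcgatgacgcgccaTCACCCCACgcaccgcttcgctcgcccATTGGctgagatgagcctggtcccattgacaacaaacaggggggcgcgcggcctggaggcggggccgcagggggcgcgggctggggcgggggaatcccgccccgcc
The SREBF2 window held both motifs, INSIG1 1 NF-Y box, and STARD4 and SCD 2 NF-Y boxes each. The SREBF1 window held neither set of letters. It was the only window searched for that gene and lies at its outer start, so any start further inside the gene was not covered. For the count over genes, a window is the 250 bases before a start in the RefSeq promoter table. Some members have more than 1 start there, so that 29 members gave 40 windows, and a start is not always the outer end of the gene (PMVK). SQLE, FDFT1, FASN and ACAT2 had no window. Searched on both strands, CCAAT occurred in at least 1 window of 21 of the 29 members (72.4%). That share by gene was not counted over all genes. Counted by window, CCAAT occurred in 25 of 40 member windows (62.5%) and in 11240 of 35116 windows of all genes (32.0%). Where the windows of a gene overlap, as for SC5D and ACLY, the same box is counted in each. TCACNCCAC occurred in 1 of the 40 member windows (2.5%) and in 310 windows of all genes (0.883%). These are letter matches and not measured binding.

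In the combination, 11 of the 33 genes fell against DMSO and 1 rose, in edgeR's quasi-likelihood test with Benjamini-Hochberg adjusted p under 0.05 over 15353 genes. The fallen genes were the regulators SREBF1, SCAP and INSIG1, the sterol genes STARD4, HMGCS1, SQLE, LSS, CYP51A1 and DHCR7, and the fatty acid genes FASN and SCD. The risen gene was ACSS2. The share of members that fell was 33.3%, beside 5.07% of all tested genes, and the share that rose was 3.03%, beside 5.65%. The falls were modest, the largest being 1.41-fold lower, in SREBF1. The median log2 change was -0.07 over the 33 members, -0.20 over the regulators, -0.06 over the sterol genes and -0.02 over the fatty acid genes, while the median of all tested genes was 0.00. All 3 combination libraries lay below all 3 DMSO libraries for 15 of the 33 members, beside 13.8% of all tested genes. They lay above for 3 members, beside 13.8% of all tested genes. All tested genes called numbered 1645, and 728 without DMSO replicate 2, 751 without DMSO replicate 3 and 1035 without combination replicate 2. In the same comparison 8 of 42 muscle fibre genes and 11 of 14 fibroblast and matrix genes fell.

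**Figure D1:**
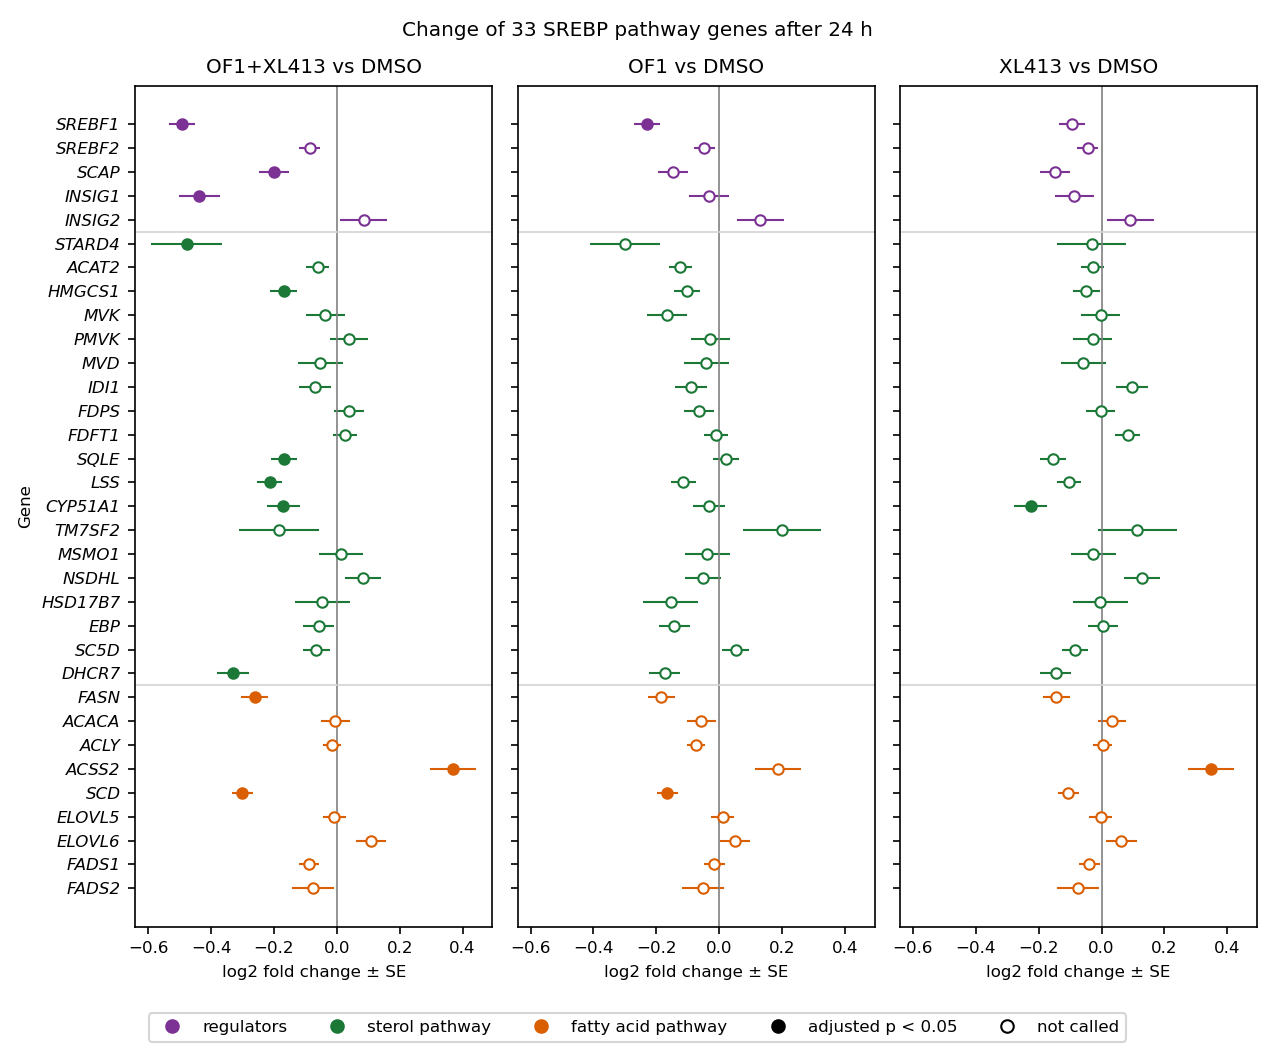
Log2 fold change with its SE (x axis) of each of the 33 genes (y axis) in OF1+XL413, OF1 and XL413, each against DMSO, with filled points for an adjusted p under 0.05. SREBF1 lies at -0.49, -0.23 and -0.09 in the 3 panels, and most sterol and fatty acid genes lie close to 0.

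SREBF1 (chromosome 17, 17811334 to 17836986), which encodes the SREBP most tied to fatty acid synthesis, had the largest change of the 33 in the combination against DMSO. It had 63.5, 69.6 and 69.5 CPM in the combination, 81.7, 80.1 and 81.5 CPM in OF1, 91.3, 90.4 and 85.7 CPM in XL413, and 92.2, 97.4 and 95.7 CPM in DMSO. The 4 groups did not overlap, and ran combination, OF1, XL413, DMSO, low to high. SREBF1 fell by 0.49 ± 0.04 (SE) on the log2 scale in the combination against DMSO (adjusted p = 1.17e-05). With OF1 alone it fell by 0.23 ± 0.04 (adjusted p = 0.0172). With XL413 alone its log2 change was -0.09 ± 0.04, which did not pass (adjusted p = 0.24). SREBF1 also fell in the combination against XL413, by 0.40 ± 0.04 (adjusted p = 6.55e-05), and against OF1, by 0.26 ± 0.04 (adjusted p = 0.00435). The OF1 call was lost without DMSO replicate 2 or 3 or OF1 replicate 2 or 3, with an adjusted p of up to 0.106 over the alternatives, while the combination call against DMSO held without each of the 12 libraries. With the mean log2 CPM of the muscle list as a covariate, the combination calls against DMSO and XL413 were kept (against XL413 -0.41, adjusted p = 0.0248). The calls of OF1 against DMSO (-0.23, adjusted p = 0.0566) and of the combination against OF1 (-0.27, adjusted p = 0.416) were lost. Exons of SREBF1 overlap those of RAI1 on the opposite strand over 6.9% of their length, and RAI1 had a log2 change of -0.07 ± 0.04 in the combination (adjusted p = 0.312).

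SREBF2 (chromosome 22, 41833105 to 41907305), which encodes the SREBP most tied to cholesterol synthesis, had 75.4, 77.4 and 74.0 CPM in the combination, 79.2, 78.2 and 75.5 CPM in OF1, 78.0, 76.9 and 78.4 CPM in XL413, and 80.5, 80.5 and 79.8 CPM in DMSO. Each inhibitor group lay below the DMSO libraries, by a small step. The log2 change in the combination was -0.09 ± 0.03, with a 95% interval of -0.16 to -0.01, and did not pass (adjusted p = 0.115). In DMSO the pair stood close to each other per length, at 11.8 ± 0.33 CPM per kb of exon for SREBF1 and 10.6 ± 0.057 CPM per kb for SREBF2 (SD, n = 3 each). In the combination the levels were 8.41 ± 0.43 CPM per kb for SREBF1 and 10.0 ± 0.22 CPM per kb for SREBF2.

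SCAP (chromosome 3, 47413681 to 47477127), the escort of both SREBPs, had 70.7, 80.3 and 80.1 CPM in the combination, 80.2, 77.5 and 82.0 CPM in OF1, 82.3, 79.9 and 77.2 CPM in XL413, and 89.6, 88.5 and 87.2 CPM in DMSO. All 9 inhibitor libraries lay below the 3 DMSO libraries, and the 3 inhibitor groups overlapped each other. SCAP fell by 0.20 ± 0.05 in the combination against DMSO (adjusted p = 0.0154). The single-inhibitor changes were -0.15 ± 0.05 with OF1 (adjusted p = 0.157) and -0.15 ± 0.05 with XL413 (adjusted p = 0.103), and neither passed. Combination replicate 1 was the lowest library, and without it the change was -0.15. With it alone for the combination the change was -0.32. Such a value rests on 1 combination library, whose spread is assumed to be that of the other groups. The call was lost without DMSO replicate 2, and adjusted p ran from 0.00244 to 0.0694 over the alternatives.

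INSIG1 (chromosome 7, 155297878 to 155310235), which retains SCAP and SREBPs in the endoplasmic reticulum, had 11.1, 10.2 and 11.7 CPM in the combination. Its levels were 13.99, 15.001 and 14.6 CPM in OF1, 14.9, 13.4 and 13.7 CPM in XL413, and 14.6, 14.9 and 15.2 CPM in DMSO. The combination libraries lay below all the other 9, which overlapped each other. INSIG1 fell 1.35-fold in the combination against DMSO, a log2 change of -0.44 ± 0.06 (adjusted p = 0.00084). It also fell by 0.41 ± 0.07 against OF1 (adjusted p = 0.00435) and by 0.35 ± 0.07 against XL413 (adjusted p = 0.00918). The changes with a single inhibitor against DMSO were -0.03 ± 0.06 for OF1 (adjusted p = 0.863) and -0.09 ± 0.06 for XL413 (adjusted p = 0.502). Their 95% intervals were -0.17 to 0.10 and -0.22 to 0.05. The call against DMSO held without each library, and that against XL413 was lost without XL413 replicate 1 or combination replicate 2. Under the muscle covariate the calls against OF1 (-0.28, adjusted p = 0.675) and against XL413 (-0.24, adjusted p = 0.827) were lost.

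INSIG2 (chromosome 2, 118088471 to 118110997), the related retention protein, had 8.07, 8.07 and 7.98 CPM in the combination, 8.63, 8.53 and 7.75 CPM in OF1, 7.69, 8.11 and 8.43 CPM in XL413, and 7.25, 7.54 and 7.95 CPM in DMSO. The combination libraries lay just above those of DMSO. The log2 change was 0.09 ± 0.07, with a 95% interval of -0.07 to 0.24 (adjusted p = 0.522), and INSIG2 passed in none of the 8 comparisons.

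**Figure D2:**
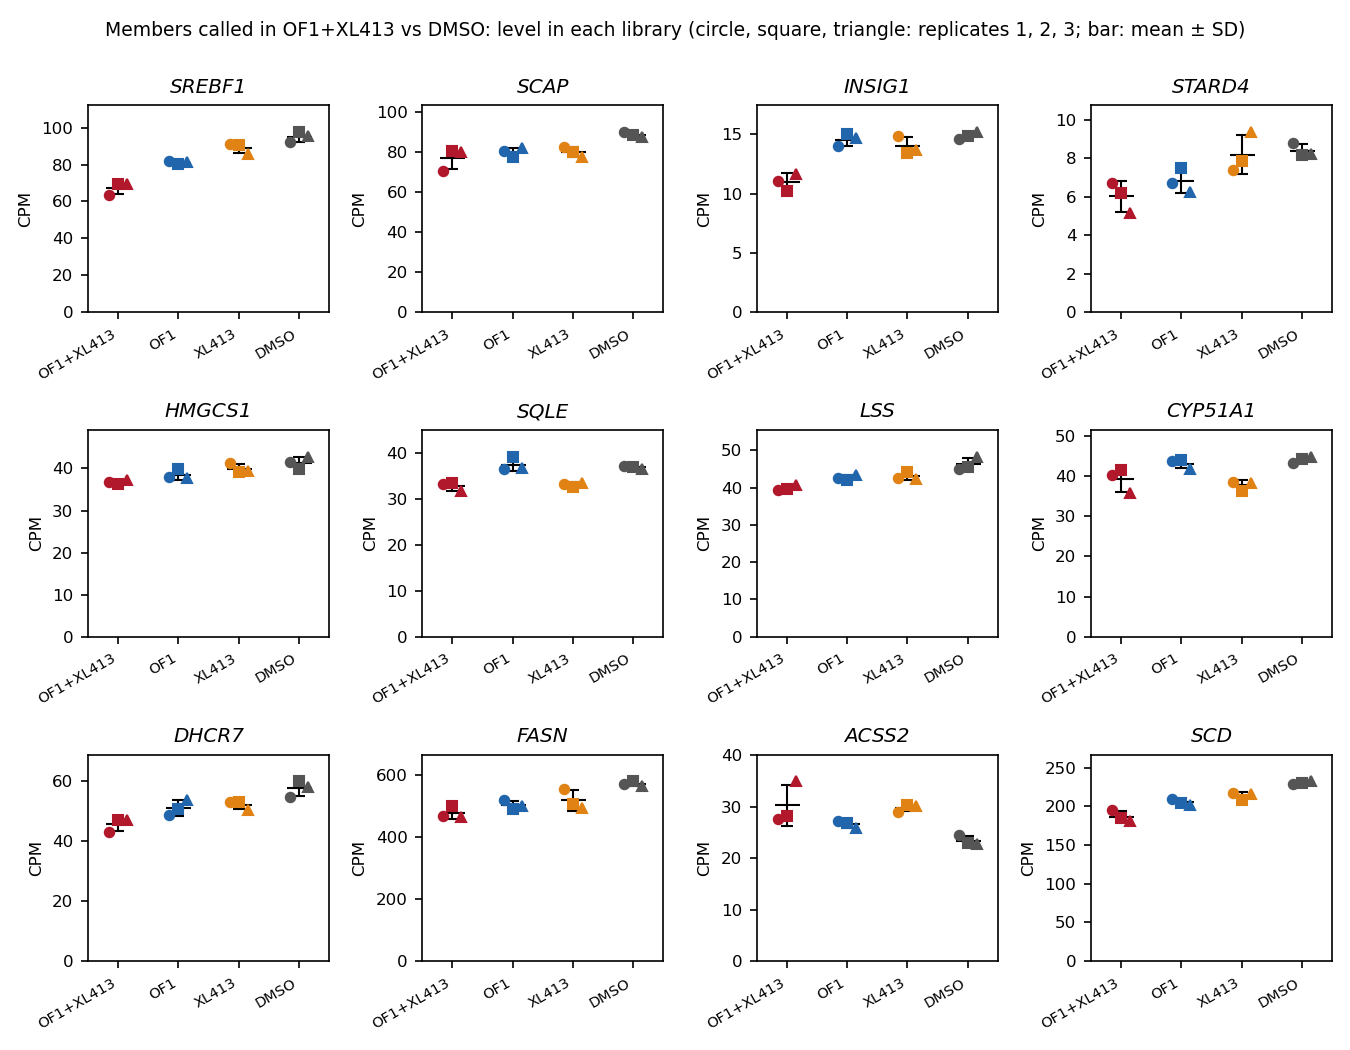
Level in CPM (y axis, from 0) of the 12 genes called in OF1+XL413 against DMSO, in each library of OF1+XL413, OF1, XL413 and DMSO (x axis), with the mean and SD of 3 libraries. SREBF1 steps over 4 groups that do not overlap, from 67.6 CPM in OF1+XL413 through 81.1 CPM in OF1 and 89.1 CPM in XL413 to 95.1 CPM in DMSO, while INSIG1 is low in OF1+XL413 against 3 groups that overlap.

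Of the 19 sterol pathway genes, 6 fell and 0 rose in the combination against DMSO. The count of 0 risen was the same at an unadjusted p under 0.05, in DESeq2 and in limma-voom. The sums over the 19 genes were 827 ± 29.7 CPM in the combination, 819 ± 17.6 CPM in OF1, 848 ± 6.49 CPM in XL413 and 861 ± 3.72 CPM in DMSO (SD, n = 3 each). Of the 6, SQLE, LSS and CYP51A1 act in consecutive steps. HMGCS1 lies at the start of the route and DHCR7 at its end, and STARD4 is a carrier of cholesterol.

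At the start of the mevalonate route, HMGCS1 (chromosome 5, 43287470 to 43313412), which makes HMG-CoA, had 36.9, 36.2 and 37.1 CPM in the combination, 37.9, 40.0 and 37.7 CPM in OF1, 41.3, 39.1 and 39.5 CPM in XL413, and 41.4, 39.9 and 42.7 CPM in DMSO. The combination lay below all other libraries. HMGCS1 fell by 0.17 ± 0.04 against DMSO (adjusted p = 0.0187), and this was lost without DMSO replicate 1 or 3 or combination replicate 2 (adjusted p from 0.016 to 0.292 over all alternatives). The genes between HMGCS1 and squalene did not pass. Acetyl-CoA thiolase ACAT2 and the mevalonate enzymes MVK, PMVK, MVD, IDI1 and FDPS, with the squalene synthase gene FDFT1, had log2 changes in the combination between -0.07 (IDI1) and 0.04 (PMVK and FDPS). Of these, ACAT2 shares 26.5% of its exon length with SOD2 and 9.2% with TCP1, both on the opposite strand.

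SQLE (chromosome 8, 124998505 to 125022283), squalene epoxidase, had 33.3, 33.6 and 31.6 CPM in the combination, 36.6, 39.1 and 36.7 CPM in OF1, 33.3, 32.6 and 33.5 CPM in XL413, and 37.2, 36.9 and 36.6 CPM in DMSO. Its level was low in both groups that had XL413 and high in both that did not, with no overlap. SQLE fell by 0.17 ± 0.04 in the combination against DMSO (adjusted p = 0.0188) and by 0.19 ± 0.04 against OF1 (adjusted p = 0.0194). XL413 alone gave -0.16 ± 0.04 (adjusted p = 0.059) and OF1 alone 0.02 ± 0.04 (adjusted p = 0.853). The call against DMSO was lost without any single DMSO replicate or combination replicate 3, and the call against OF1 without OF1 replicate 2 or combination replicate 2 or 3. The change against OF1 was -0.19 with the muscle covariate too, and did not pass (adjusted p = 0.689).

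LSS (chromosome 21, 46188446 to 46228774), which closes squalene epoxide into lanosterol, had 39.3, 39.6 and 40.7 CPM in the combination, 42.5, 42.1 and 43.4 CPM in OF1, 42.7, 44.2 and 42.2 CPM in XL413, and 45.0, 45.5 and 48.2 CPM in DMSO. The single-inhibitor groups overlapped each other and lay between the combination and DMSO. LSS fell by 0.21 ± 0.04 in the combination against DMSO (adjusted p = 0.00355), a call kept without each library. OF1 alone gave -0.11 ± 0.04 (adjusted p = 0.187) and XL413 alone -0.10 ± 0.04 (adjusted p = 0.166).

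CYP51A1 (chromosome 7, 92112153 to 92134803), lanosterol demethylase, followed XL413. It had 40.3, 41.6 and 35.7 CPM in the combination, 43.7, 44.0 and 41.7 CPM in OF1, 38.6, 36.2 and 38.2 CPM in XL413, and 43.3, 44.3 and 44.8 CPM in DMSO. The combination and XL413 overlapped each other, as did OF1 and DMSO, and all libraries with XL413 lay below all without it. CYP51A1 fell by 0.23 ± 0.05 with XL413 alone (adjusted p = 0.0335) and by 0.17 ± 0.05 in the combination (adjusted p = 0.0493), each against DMSO. Both calls are near the threshold. That of XL413 was lost without any single library of XL413 or DMSO or without OF1 replicate 2, and with the muscle covariate (-0.23, adjusted p = 0.0676). That of the combination was kept without combination replicate 1 or 2 and lost without each of the other 10 libraries, and without combination replicate 3 the change was -0.11. Exons of CYP51A1 also belong, over 79.4% of their length and on the same strand, to AC000120.2, a gene of the GENCODE annotation. The deposited values hold no entry of that name, so whether the 2 genes shared reads is not known.

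DHCR7 (chromosome 11, 71427287 to 71449043), which makes cholesterol from 7-dehydrocholesterol, had the clearest fall of the sterol enzymes. It had 43.2, 47.2 and 47.1 CPM in the combination, 48.8, 50.6 and 53.8 CPM in OF1, 52.9, 53.0 and 50.4 CPM in XL413, and 54.8, 59.9 and 58.1 CPM in DMSO. The combination lay below all other libraries and DMSO above all others. DHCR7 fell by 0.33 ± 0.05 in the combination against DMSO (adjusted p = 0.000924), and the call held without each library. The single-inhibitor changes were -0.17 ± 0.05 for OF1 (adjusted p = 0.112) and -0.15 ± 0.05 for XL413 (adjusted p = 0.129).

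STARD4 (chromosome 5, 111496033 to 111512535), a carrier of cholesterol between membranes, is weakly expressed, at 1.48 ± 0.060 CPM per kb in DMSO (SD, n = 3). It had 6.74, 6.19 and 5.14 CPM in the combination, 6.73, 7.48 and 6.27 CPM in OF1, 7.40, 7.86 and 9.35 CPM in XL413, and 8.78, 8.16 and 8.25 CPM in DMSO. The groups with OF1 overlapped each other and lay below DMSO. STARD4 fell by 0.48 ± 0.11 in the combination against DMSO (adjusted p = 0.0149) and by 0.45 ± 0.11 against XL413 (adjusted p = 0.042). The call against DMSO was lost without DMSO replicate 1. That against XL413 was kept without OF1 replicate 3 or combination replicate 1 and lost without each of the other 10 libraries. With combination replicate 1 alone the changes were -0.32 against DMSO and -0.28 against XL413. The change against XL413 was -0.53 with the muscle covariate and did not pass (adjusted p = 0.572).

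Among the later sterol enzymes, NSDHL and SC5D passed only in the average XL413 effect given further on. NSDHL, a C4 demethylation enzyme, had 36.5, 39.9 and 42.2 CPM in the combination, 33.2, 36.9 and 38.0 CPM in OF1, 40.5, 42.4 and 39.7 CPM in XL413, and 37.7, 37.3 and 37.1 CPM in DMSO. SC5D, sterol C5 desaturase, had 23.2, 24.2 and 23.2 CPM in the combination, 26.1, 25.3 and 25.2 CPM in OF1, 23.6, 23.3 and 22.8 CPM in XL413, and 24.8, 24.2 and 24.9 CPM in DMSO. The XL413 libraries were the higher for NSDHL and the lower for SC5D, in each case without overlap with DMSO. The sterol reductase TM7SF2, the weakest member per length at 1.01 ± 0.047 CPM per kb in DMSO, and MSMO1, HSD17B7 and EBP passed in none of the comparisons. HSD17B7 shares sequence with a pseudogene copy, so its counts are uncertain.

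Of the 9 fatty acid pathway genes, FASN and SCD fell and ACSS2 rose in the combination against DMSO, and 6 did not pass. The 9 genes summed to 1528 ± 28.7 CPM in the combination, 1558 ± 33.2 CPM in OF1, 1607 ± 53.2 CPM in XL413 and 1673 ± 12.2 CPM in DMSO (SD, n = 3 each). Per length, ACLY, FASN and SCD were the highest of the 9 in DMSO, at 73.1 ± 1.0, 61.1 ± 0.71 and 42.9 ± 0.35 CPM per kb (SD, n = 3 each).

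FASN (chromosome 17, 82078338 to 82098236), fatty acid synthase, had 467, 501 and 466 CPM in the combination, 518, 491 and 502 CPM in OF1, 556, 506 and 493 CPM in XL413, and 572, 579.6 and 566 CPM in DMSO. All inhibitor libraries lay below DMSO, and the 3 inhibitor groups overlapped. FASN fell by 0.26 ± 0.04 in the combination against DMSO (adjusted p = 0.00173), and the call held without each library. OF1 alone gave -0.18 ± 0.04 (adjusted p = 0.0518), just short of the threshold, and passed in DESeq2 (adjusted p = 0.0039) and limma-voom (adjusted p = 0.0449). XL413 alone gave -0.14 ± 0.04 (adjusted p = 0.0865).

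SCD (chromosome 10, 100347233 to 100364826), which desaturates stearoyl-CoA to oleoyl-CoA, had 195, 185 and 181 CPM in the combination, 210.0, 204 and 202 CPM in OF1, 217, 208 and 216 CPM in XL413, and 228, 229.8 and 232 CPM in DMSO. The combination lay below all other libraries and DMSO above all others, with OF1 and XL413 overlapping in between. SCD fell by 0.30 ± 0.03 in the combination against DMSO (adjusted p = 8.55e-05), by 0.19 ± 0.03 in the combination against XL413 (adjusted p = 0.0053) and by 0.14 ± 0.03 against OF1 (adjusted p = 0.0336). OF1 alone lowered it by a log2 change of -0.16 ± 0.03 (adjusted p = 0.0276), and XL413 alone gave -0.11 ± 0.03, which did not pass (adjusted p = 0.106). The combination calls against DMSO and against XL413 held without each library. That of OF1 was lost without any single OF1 or DMSO replicate. That of the combination against OF1 was kept without DMSO replicate 1, XL413 replicate 1 or 2 or combination replicate 1, and lost without each of the other 8 libraries. With combination replicate 1 alone the change against OF1 was -0.08. With the muscle covariate the calls of OF1 (-0.17, adjusted p = 0.0759), of the combination against XL413 (-0.17, adjusted p = 0.531) and of the combination against OF1 (-0.11, adjusted p = 0.815) were lost.

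ACSS2 (chromosome 20, 34874989 to 34927959), which makes acetyl-CoA from acetate, moved the other way. It had 27.6, 28.3 and 34.9 CPM in the combination, 27.3, 26.9 and 25.8 CPM in OF1, 29.02, 30.4 and 30.1 CPM in XL413, and 24.6, 22.9 and 22.8 CPM in DMSO. All inhibitor libraries lay above DMSO, and combination replicate 3 was the highest. ACSS2 rose 1.29-fold in the combination, a log2 change of 0.37 ± 0.07 (adjusted p = 0.00545), and by 0.35 ± 0.07 with XL413 alone (adjusted p = 0.0238). OF1 alone gave 0.19 ± 0.07 (adjusted p = 0.257). The call in the combination held without each library, and with combination replicate 1 alone the change was 0.24. That of XL413 was lost on leaving out replicate 2 or 3 of either XL413 or DMSO.

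The other fatty acid genes are the acetyl-CoA carboxylase ACACA, the citrate lyase ACLY, the elongases ELOVL5 and ELOVL6 and the desaturases FADS1 and FADS2. Their log2 changes in the combination ran from -0.09 (FADS1) to 0.11 (ELOVL6). FADS2 stood at -0.08 ± 0.07 (adjusted p = 0.529), and at -0.27 with combination replicate 1, its lowest library, alone. Exons of FADS1 and FADS2 overlap on opposite strands.

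With OF1 alone, SREBF1 and SCD fell and 0 of the 33 members rose. The share fallen was 6.06%, beside 0.567% of all tested genes, and 0.58% of all tested genes rose. At an unadjusted p under 0.05, 1 member was higher and 12 were lower, beside 1034 and 1175 of the 15353 tested genes, while DESeq2 and limma-voom called 0 risen and 3 fallen each. No sterol gene passed, although 7 of the 19 were lower at an unadjusted p under 0.05. The median log2 change over the 33 members was -0.05. The number of members called was 0 without DMSO replicate 2 or 3 or OF1 replicate 2 or 3, 1 without replicate 1 of either group, and up to 4 without a library of the other groups (4 without combination replicate 1). Called genes of all tested numbered 176. They numbered 42 to 79 without any single OF1 or DMSO library (42 without DMSO replicate 2), and 388 and 302 without combination replicate 1 or 3.

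With XL413 alone, CYP51A1 fell and ACSS2 rose. The share fallen was 3.03%, beside 1.54% of all tested genes, and the share risen was 3.03%, beside 1.26%. At an unadjusted p under 0.05, 8 members were lower and 3 higher, beside 1448 and 1403 of the 15353 tested genes. None of the 5 regulators passed, in edgeR, DESeq2 or limma-voom, with 2 of them lower at an unadjusted p under 0.05. The number of members called was 0 on leaving out replicate 2 or 3 of either XL413 or DMSO, 1 without DMSO replicate 1 or OF1 replicate 2, 3 without combination replicate 3 and 4 without combination replicate 1. Called genes of all tested numbered 430. They numbered 86 to 128 without replicate 2 or 3 of XL413 or any single DMSO library, 274 without OF1 replicate 2, and 677 and 722 without combination replicate 1 or 3. With the muscle covariate the only member called was ACSS2 (0.38, adjusted p = 0.0249).

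OF1 and XL413 at the same dose and time were not tested against each other. Their changes against DMSO share the 3 DMSO libraries and are set side by side above.

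When OF1 was added to cells that also had XL413, 4 members fell (SREBF1, INSIG1, STARD4 and SCD) and 0 rose. That is 12.1% of the members, beside 2.35% of all tested genes fallen and 1.06% risen. No member was higher at an unadjusted p under 0.05, in DESeq2 or in limma-voom. In the same comparison 23 of 42 muscle fibre genes fell, with a median log2 change of -1.99 over the list, and 10 of 14 fibroblast and matrix genes fell. With the muscle covariate only the SREBF1 call was kept among the members, and 32 of all tested genes were called, against 524 without the covariate.

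When XL413 was added to cells that also had OF1, SREBF1, INSIG1, SQLE and SCD fell and 0 members rose, again 12.1%, beside 2.71% of all tested genes fallen and 2.79% risen. Here 3 members were higher at an unadjusted p under 0.05, beside 1798 of the 15353 tested genes, and 0 in DESeq2 and limma-voom. In this comparison 30 of 42 muscle fibre genes fell, with a median log2 change of -2.09 over the list, and 9 of 14 fibroblast and matrix genes fell. With the muscle covariate 0 members were called, and 9 of all tested genes, against 845 without the covariate. The mean log2 CPM of the muscle list was -0.94 to 0.44 in the combination, 0.95 to 2.11 in OF1 and 0.90 to 2.12 in XL413. With no overlap, the covariate and these group differences can be told apart only in part. Changes against OF1 without and with it were -0.26 and -0.27 for SREBF1 and -0.41 and -0.28 for INSIG1. They were -0.19 and -0.19 for SQLE, and -0.14 and -0.11 for SCD. Without combination replicate 1, 4 members fell and 2 rose against OF1, and without combination replicate 2 or 3 or OF1 replicate 2, 2 fell. Against XL413, 2 fell without XL413 replicate 1 or combination replicate 2. Called genes of all tested against OF1 numbered 528 without DMSO replicate 2, 291 to 384 without any single OF1 library, and 2227, 212 and 370 without combination replicate 1, 2 or 3. Against XL413 they numbered 191 and 197 without XL413 replicate 1 or 2, and 828 and 168 without combination replicate 1 or 2.

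The average effect of each inhibitor, taken with and without the other, uses all 12 libraries. For OF1, 8 of the 33 members fell (24.2%, beside 2.74% of all tested genes) and 0 rose (beside 2.21%), with 0 risen at an unadjusted p under 0.05, in DESeq2 and in limma-voom. SREBF1 fell by 0.31 ± 0.03 (adjusted p = 1.36e-05), SCD by 0.18 ± 0.02 (adjusted p = 0.00041) and STARD4 by 0.37 ± 0.08 (adjusted p = 0.0135). DHCR7, FASN, INSIG1, LSS and HMGCS1 fell by log2 changes between -0.19 (INSIG1) and -0.11 (HMGCS1 and LSS). Calls of INSIG1, LSS and HMGCS1 were each lost without 5 or more of the 12 libraries in turn, and the other 5 were kept without each. The number fallen was 5 without DMSO replicate 2 or 3, XL413 replicate 1, OF1 replicate 1 or combination replicate 2. Of the 8 calls, 4 were kept with the muscle covariate, those of SREBF1, STARD4, FASN and SCD. Called genes of all tested numbered 759, and 412 to 481 without DMSO replicate 2 or 3, XL413 replicate 1 or 2 or OF1 replicate 2. In this effect 6 of 14 fibroblast and matrix genes fell. For XL413, 9 members fell (27.3%, beside 5.63%) and 2 rose (6.06%, beside 6.39%).

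The 9 that fell in the average XL413 effect were SREBF1, INSIG1, SQLE, LSS, CYP51A1, SC5D, DHCR7, FASN and SCD. INSIG1 fell by 0.25 ± 0.05 (adjusted p = 0.00421), CYP51A1 by 0.18 ± 0.04 (adjusted p = 0.00678), SREBF1 by 0.18 ± 0.03 (adjusted p = 0.00193) and SQLE by 0.17 ± 0.03 (adjusted p = 0.00235). ACSS2 rose by 0.27 ± 0.05 (adjusted p = 0.00554) and NSDHL by 0.13 ± 0.04 (adjusted p = 0.0479). FASN, LSS, SC5D and NSDHL lost their calls without 4 or more of the libraries in turn. The other 7 kept them, and 7 members in all were called without DMSO replicate 3 or XL413 replicate 3. Of the 11 calls, 3 were kept with the muscle covariate, those of SREBF1, SQLE and CYP51A1, and ACSS2 (0.22, adjusted p = 0.0635) was among those lost. Called genes of all tested numbered 1845. They numbered 1050 to 1198 without DMSO replicate 2 or 3, XL413 replicate 2 or 3 or OF1 replicate 1, and 2903 without combination replicate 1. In this effect 4 of 42 muscle fibre genes and 3 of 14 fibroblast and matrix genes fell. SQLE had an average OF1 change of 0.00 ± 0.03 and CYP51A1 of 0.01 ± 0.04, with 95% intervals of -0.06 to 0.07 and -0.07 to 0.09. STARD4 had an average XL413 change of -0.11 ± 0.08, with an interval of -0.27 to 0.06.

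A test of non-additivity asked whether the log2 change in the combination differed from the sum of the single changes. None of the 33 members passed in edgeR, DESeq2 or limma-voom, and 3 were lower than the sum at an unadjusted p under 0.05. Over all tested genes the count was 0 (0%) in edgeR, 1566 at an unadjusted p under 0.05, 109 in DESeq2, 0 in limma-voom and 362 in edgeR without combination replicate 1. INSIG1 departed by -0.32 ± 0.09 (adjusted p = 0.188), with a 95% interval of -0.51 to -0.13. SREBF1 departed by -0.17 ± 0.06 (adjusted p = 0.301), with an interval of -0.30 to -0.04. TM7SF2 departed by -0.50 ± 0.18 (adjusted p = 0.321), at 2.92 to 3.08 CPM in the combination, 3.65 to 4.49 CPM in OF1, 3.22 to 4.17 CPM in XL413 and 3.26 to 3.57 CPM in DMSO. DHCR7, SCD, LSS and HMGCS1 departed by -0.03 to 0.00, with intervals that reach no further than -0.16 to 0.14. The other genes called in the combination against DMSO lay on both sides of 0. Departures were 0.10 ± 0.07 for SCAP, 0.09 ± 0.07 for CYP51A1 and 0.07 ± 0.06 for FASN. They were -0.03 ± 0.06 for SQLE, -0.15 ± 0.16 for STARD4 and -0.17 ± 0.10 for ACSS2. The median departure was -2.64 over the 42 tested muscle fibre genes and -0.95 over the 14 fibroblast and matrix genes. All genes of both lists lay below 0 and 0 passed, while the median of all tested genes was 0.01.

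**Figure D3:**
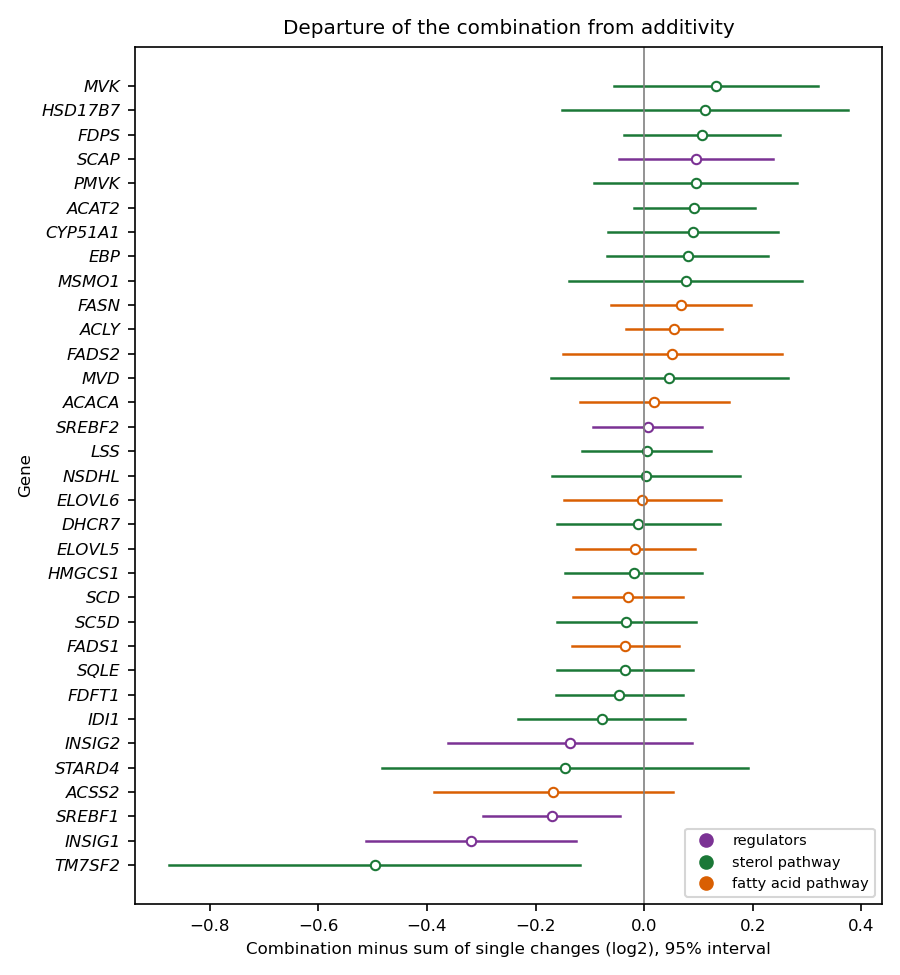
Combination log2 change minus the summed single-inhibitor log2 changes (x axis, point and 95% interval) for each of the 33 genes (y axis), coloured by list. INSIG1, SREBF1 and TM7SF2 are the 3 genes whose interval does not reach 0, and none of the 33 has an adjusted p under 0.05.

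Other genes of the pathway were taken as 3 lists, with counts for the combination against DMSO. Beside them, 5.65% of all tested genes rose and 5.07% fell, and 3931 of the 15353 had an unadjusted p under 0.05 (1977 higher and 1954 lower). Of 20 tested genes of SREBP processing and turnover, 0 rose and 2 fell. These were HSP90B1, an endoplasmic reticulum chaperone (log2 change -0.10 ± 0.03, adjusted p = 0.0236), and SAR1A, a GTPase of the vesicles that leave the endoplasmic reticulum (-0.12 ± 0.03, adjusted p = 0.0402). At an unadjusted p under 0.05 2 of the 20 were higher, and DESeq2 and limma-voom called 0 risen. Of 24 other lipid genes linked to SREBPs, 0 passed in edgeR, 11 had an unadjusted p under 0.05 (4 higher and 7 lower), DESeq2 called 1 risen and limma-voom 0. Of 21 LXR targets and genes of sterol efflux, storage and transport, 2 rose and 2 fell. NPC2, which carries cholesterol out of lysosomes, rose by 0.26 ± 0.04 (adjusted p = 0.00227), at 81.5, 82.7 and 89.7 CPM in the combination, against 72.9, 69.9 and 69.5 CPM in DMSO. VLDLR, a lipoprotein receptor, rose by 0.36 ± 0.10 (adjusted p = 0.0312), LPCAT3, which remodels phospholipids, fell by 0.16 ± 0.04 (adjusted p = 0.0206), and SCARB1, the HDL receptor, fell by 0.14 ± 0.04 (adjusted p = 0.0368). The medians of the 3 lists were -0.01, -0.00 and 0.01 on the log2 scale.

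The combination calls were followed over the doubtful libraries. Combination replicate 1 had a muscle sum of 151 CPM, within the DMSO range (136 to 343 CPM) but below all OF1 and XL413 libraries. This library's fibroblast and matrix sum, 1806 CPM, lay below the 1950 CPM or more of the other 9 libraries. With it alone for the combination, 8 members were called, 7 of them among the 12 above, with 1 library in place of 3 and its spread assumed. Those not called were STARD4 (-0.32, against -0.48 with all 3 libraries), HMGCS1 (-0.16, against -0.17), SQLE (-0.15, against -0.17), CYP51A1 (-0.13, against -0.17) and ACSS2 (0.24, against 0.37). Without that library all 12 calls were kept. With the mean log2 CPM of the muscle list as a covariate, 5 calls were kept, those of SREBF1 (-0.50), INSIG1 (-0.35), DHCR7 (-0.30), FASN (-0.27) and SCD (-0.28), and 294 of all tested genes were called, against 1645 without the covariate. SREBF1, INSIG1, DHCR7, FASN and SCD were called under all alternatives. The part of the fibroblast and matrix transcripts in these results was not tested.

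**Figure D4:**
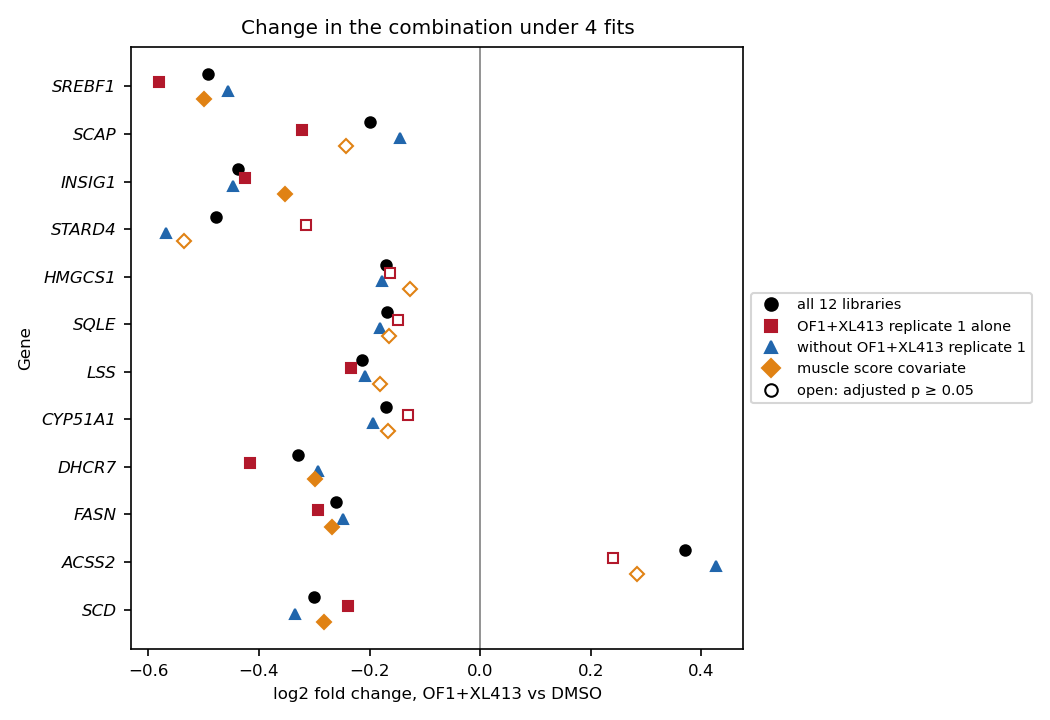
Log2 fold change in OF1+XL413 against DMSO (x axis) of the 12 called genes (y axis) with all 12 libraries, with OF1+XL413 replicate 1 alone, without it, and with the muscle list as a covariate, with open points where the adjusted p is 0.05 or more. No gene changes sign, and SREBF1, INSIG1, DHCR7, FASN and SCD stay filled under all 4 fits.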

How the data were processed

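Poly(A) RNA from A375 cells was sequenced in strand-specific libraries, per the labels' protocols. The deposited values are expected counts for each gene symbol, estimated read numbers with no scaling for depth. Per the submitters' processing notes, reads were handled with Bowtie2 2.1.0 and RSEM 1.2.15 on hg38. Whether counting used strand, and with which annotation, is not stated in the sources at hand, so overlapping genes on opposite strands may share reads.

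Of the deposited expected counts 10.6% were not whole, and all were rounded. Genes passing filterByExpr (15353) were scaled by TMM and fitted in edgeR 4.0.16 (R 4.3.3) with 1 mean per group over all 12 libraries (8 residual degrees of freedom). Quasi-likelihood F tests were adjusted by Benjamini-Hochberg over all tested genes in each of 8 comparisons, with adjusted p under 0.05 as the threshold. The SE was taken as the size of the log2 change over the square root of its F statistic. CPM uses TMM-scaled library sizes, and CPM per kb divides by merged GENCODE exon length, which overstates the length of genes with many isoforms. Replicates of a group differed beyond counting noise (chi-square of 2.33 to 13.95 for each degree of freedom), so none was treated as a copy of another. Alternatives were DESeq2 1.42.0, limma-voom (limma 3.58.1), other scaling factors and filters, a replicate block, the compared libraries alone, a muscle covariate and leaving out libraries.

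The members, lists and tests were chosen with earlier results of these data known. Values in every library are given for the regulators and for each member called in at least 1 comparison, and the other members are given by range and count. From each other list up to 4 called genes with the smallest adjusted p in the combination are named.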

Additional observations from a re-analysis of the deposited data

How the results depend on the processing

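Of the 43 calls of a member in a comparison, 12 were kept under all alternatives and 0 changed direction. RLE or upper-quartile factors, DESeq2, limma-voom and other filters moved no count of called members by over 1.5 times. With the muscle covariate the counts were 0 for OF1 against DMSO, 5 for the combination against DMSO, 0 against OF1, 1 against XL413, 1 for XL413 against DMSO, 4 for the average OF1 effect and 3 for the average XL413 effect. With combination replicate 1 alone (1 library, its spread assumed) they were 4 for OF1 against DMSO, 6 for XL413 against DMSO, 1 for the combination against OF1 and 1 against XL413. With the compared libraries only they were 8 for the combination against DMSO, where SCAP, HMGCS1, SQLE and CYP51A1 were lost. They were 3 for OF1 against DMSO, 7 for XL413 against DMSO, 2 for the combination against OF1 and 3 against XL413. The cause of these moves was not tested. Leaving out 1 library at a time gave 8 to 12 called members for the combination against DMSO, 0 to 4 for OF1, 0 to 4 for XL413, 2 to 6 for the combination against OF1, 2 to 5 against XL413, 5 to 11 for the average OF1 effect, 7 to 11 for the average XL413 effect and 0 to 0 for non-additivity. Some uncalled regulators changed sign near 0. The SREBF2 departure from additivity (0.01) was -0.043 with the muscle covariate, and -0.013 to 0.025 leaving out 1 library, below 0 without OF1 replicate 3 or combination replicate 2. That of SCAP (0.10) was -0.030 with combination replicate 1 alone. SCAP in the combination against XL413 (-0.05) ran from -0.085 to 0.0015, the last without combination replicate 1. INSIG2 in the same comparison (-0.01) ran from -0.038 to 0.028, the last without XL413 replicate 3. The average XL413 effect on INSIG2 (0.02) ran from -0.0026, without OF1 replicate 3, to 0.039. Deviations from the group means correlated at -0.16 to 0.20 over 18 same-numbered pairs of libraries from different groups. Over the 36 pairs with different numbers they correlated at -0.20 to 0.18. These values cannot show whether same-numbered libraries were prepared together. With the replicate block 11 members were called for the combination against DMSO, 2 for OF1, 2 for XL413, 4 for the combination against OF1 and 4 against XL413, 7 and 10 for the average OF1 and XL413 effects and 0 for non-additivity.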
